A study of Mus musculus with 6 samples.

Results

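Genes that set how strongly an artery contracts were followed in thoracic aortas from mice lacking Ndst1 in smooth muscle and from wild-type (WT) mice. The set held 43 genes: receptors for constrictor and dilator signals, the enzymes of cyclic GMP signalling, ion channels and Rgs proteins, with a few further genes of contraction. They were found by their symbol or an older alias in the array's platform annotation, which named 89 probes of 37 of them. Of the 43 genes, 31 had at least 1 probe that was detected on 3 or more of the 6 arrays, and these 31 are among the 10077 genes tested of 19057 named on the array. The set was chosen by function, with earlier results of these data known.

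The first genotype, called mutant below, is given in the labels as SM22αCre+Ndst-/- (3 samples), and the other, WT, as SM22αCre-Ndstwt/wt (3 samples). The WT mice thus lack both the deletion and the Cre transgene. All 6 samples were thoracic aortas of male C57Bl/6 mice aged 3 to 4 months, on 1 array each. Cre under the SM22α promoter, a promoter of smooth muscle, drove the deletion, and by its title the series was made to ask about the elasticity of arteries. Whether each array had its own mouse is not in the labels. The p-values then rest on the spread between arrays alone, which may be technical. The transcript of Ndst1 was not analysed here, and the genotype labels were therefore not checked on the arrays.

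The force of an artery is set by smooth muscle calcium. Constrictors such as angiotensin II, endothelin and vasopressin act on receptors coupled to G proteins that release calcium, which leads to the phosphorylation of myosin. Nitric oxide and natriuretic peptides raise cyclic GMP and prostacyclin raises cyclic AMP, both of which lower calcium, and potassium channels close the calcium channels by making the membrane more negative. Rgs proteins speed the shut-off of G proteins and so act as brakes on the receptors.

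Values below are log2 normalised intensities per array, and differences are mutant minus WT in log2 units with limma's standard error, n = 3 arrays per genotype. A gene is described by its brightest tested probe unless another probe is named. A gene was called when limma's p, adjusted by the Benjamini-Hochberg method over all 17954 tested probes, was under 0.05. Levels of different probes are not comparable, because each binds its target differently.

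By their brightest probe, 3 of the 31 tested genes rose, namely Edn1, Rgs4 and Gucy1a1, and none fell. That is 9.68% of the tested set, near the 7.35% called among all tested genes (4.61% higher and 2.74% lower). With the processing reported here, the share called thus does not set these genes apart. At an unadjusted p under 0.05 there were 10 genes, or 32.3% of the set, against 26% of all tested genes. The median difference was 0.13 for the 31 genes and 0.0050 over all tested genes, and 23 of the 31 differences were above 0. The 3 mutant values lay all on 1 side of the 3 WT values for 11 of the 31 genes, or 35.5%, close to the 34.1% of all tested genes. Of the 31 genes 9 had all mutant values higher and 2 had all of them lower. Over all 10077 tested genes it was 1811 (18%) higher and 1622 (16.1%) lower, a more even division between the directions. The share called moved with the processing. Without normalization between arrays 10 of the 31 genes and 2711 of the 17954 tested probes were called. Without WT replicate 2 it was 0 genes and 502 probes.

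The sequences before the annotated starts of the 3 genes that rose are given first, since these genes moved in the same direction. They are the 250 bases before the start in RefSeq's table for the GRCm38.p6 build, read 5′ to 3′ along the gene's strand. Of the 43 genes 37 matched this table, and for Gucy1a1, which has 2 listed starts, the first listed is shown. Capitals mark matches, on either strand, to motifs that were searched for: TATAAA of core promoters, CCAAT for the factor NF-Y, GGGCGG for Sp1, GATAA for GATA factors, TGACTCA for AP-1, TGACGTCA for Creb and the CArG box for serum response factor.
Edn1, chr13:42301226-42301475, plus strand: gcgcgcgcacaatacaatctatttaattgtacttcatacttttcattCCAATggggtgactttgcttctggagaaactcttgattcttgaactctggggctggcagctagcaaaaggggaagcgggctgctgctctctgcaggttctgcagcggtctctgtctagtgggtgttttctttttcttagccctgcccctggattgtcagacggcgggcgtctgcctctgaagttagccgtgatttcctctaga
Rgs4, chr1:169747643-169747892, minus strand: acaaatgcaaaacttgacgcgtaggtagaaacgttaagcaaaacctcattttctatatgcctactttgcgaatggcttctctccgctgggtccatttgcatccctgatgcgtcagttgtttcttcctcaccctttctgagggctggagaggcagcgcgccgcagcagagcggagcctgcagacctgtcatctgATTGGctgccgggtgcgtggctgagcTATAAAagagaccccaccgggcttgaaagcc
Gucy1a1, chr3:82145651-82145900, minus strand: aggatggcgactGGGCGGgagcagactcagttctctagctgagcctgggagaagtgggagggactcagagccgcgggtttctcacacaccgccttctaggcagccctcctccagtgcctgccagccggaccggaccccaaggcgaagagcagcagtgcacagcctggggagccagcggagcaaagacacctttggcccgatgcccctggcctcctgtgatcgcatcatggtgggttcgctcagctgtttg
The Edn1 window held 1 CCAAT match, 198 bases before the start. The Rgs4 window held a TATAAA match 25 bases and a CCAAT match 52 bases before the start, and the Gucy1a1 window held a GGGCGG match 232 bases before it. No matches overlapped. Among the 250 bases before all 32851 listed starts, 12.4% held TATAAA, 33.8% CCAAT, 32.7% GGGCGG, 22.6% GATAA, 4.46% TGACTCA, 1.55% TGACGTCA and 1.47% a CArG box. A match is a description of the letters, and these windows shared no motif beyond the CCAAT match of Edn1 and Rgs4.

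The tissue label was checked against 10 smooth muscle markers, all of which were tested. Their summed level was 48477 to 50777 in the mutant arrays and 48142 to 49483 in the WT arrays, with a median difference of 0.031. The brightest, Acta2 (0.023 ± 0.07), Mylk (0.048 ± 0.07) and Myh11 (0.040 ± 0.07), did not pass, with Acta2 at -0.16 in the authors' processed values, whereas Cald1 rose (0.75 ± 0.12) and Lmod1 fell (-0.31 ± 0.07). The 5 tested probes of Acta2 ranged from -0.63 to 0.35, and the 5 of Cald1 from 0.13 to 0.75. Cald1 passed under 11 and Lmod1 under 7 of 17 other ways of processing the arrays. The summed level counts only the brightest probe of each gene, and Acta2 weighs most in it. Marker transcripts of some other cell types differed between the genotypes. Over all tested genes 4.61% rose and 2.74% fell. Of 13 tested heart muscle markers 12 rose (median 3.23), among them Myl4, Actc1 and Sln (4.08 ± 0.09), and their summed level was 19891 to 20656 in the mutant arrays and 2156 to 2207 in the WT arrays. Pln, the heart's brake on calcium uptake, named here after its values were seen, was detected on no WT array and was at least 4.06-fold higher, its measured means being 6.99 in the mutant arrays and 4.59 in the WT arrays (limma adjusted p = 4.17e-05). Pln entered the tests through the mutant arrays alone, so that its passing and its place among the 12 are no support for a rise of the list. The others that rose were detected on all 6 arrays. Of 9 adventitial fibroblast markers 5 rose, among them Pi16 (0.67 ± 0.08) and Pdgfra (0.41 ± 0.07). The 9 had a summed level of 20192 to 21032 in the mutant arrays and 16394 to 16656 in the WT arrays. Dcn (0.32 ± 0.07) weighs most in this sum. Its 4 tested probes ranged from -0.12 to 0.32, and it passed under 6 of 17 alternatives. The nerve list had 3 of 10 genes tested and none called, and of 6 tested leukocyte markers S100a8 rose (1.40 ± 0.08). Many genes of vascular tone are made in heart muscle, fibroblasts or endothelium too, and the part of these cells in the differences was not tested.

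Among the roles, the constrictor group gave the most uniform picture, with all 6 tested genes above 0 (median 0.38, range 0.13 to 0.61). Only 1 of the 6 passed (16.7%, against 7.35% of all tested genes). Some marker lists were as uniform: all 9 tested adventitial fibroblast markers stood above 0 (median 0.34), and 8 of 9 endothelial markers (median 0.22). Each of the 6 constrictor genes also stood above 0 under all 17 other ways of processing the arrays. Edn1, which encodes the peptide endothelin-1, a constrictor released by endothelium, had log2 values of 8.19, 8.16 and 8.10 in the mutant arrays and 7.78, 7.40 and 7.45 in the WT arrays. Every mutant value exceeded every WT value, and the WT arrays spread more widely than the mutant arrays. The difference was 0.61 ± 0.11, or 1.53-fold (limma adjusted p = 0.0267). Edn1 passed under 11 of these 17 alternatives (adjusted p = 7.53e-05 to 0.085) and lost the threshold when any single array other than WT replicate 1 was left out. In the same arrays, 2 of 9 tested endothelial markers rose (22.2%, against 4.61% of all tested genes), Cldn5 by 0.51 ± 0.07 and Vwf by 0.45 ± 0.09. The summed level of the 9 markers was 9776 to 10087 in the mutant arrays, against 8262 to 8812 in the WT arrays. Their part in the Edn1 difference was not tested. In whole tissue, more cells of a type and more RNA per cell cannot be told apart.

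Among the receptors, Agtr1a, the main angiotensin II receptor of the mouse artery, had values of 7.19, 7.41 and 7.30 in the mutant arrays and 7.03, 6.74 and 6.81 in the WT arrays. The genotypes did not overlap, but the difference of 0.44 ± 0.10 missed the threshold (limma adjusted p = 0.0514), with a 95% interval of 0.19 to 0.69. It passed under 8 of 17 alternatives and under none that left out an array. Avpr1a, the vasopressin receptor of smooth muscle, gave 6.94, 6.78 and 6.59 in the mutant arrays and 6.25, 6.48 and 6.05 in the WT arrays, again without overlap. Its difference was 0.51 ± 0.14 (limma adjusted p = 0.0707, interval 0.18 to 0.83). Ptger3, a prostaglandin E2 receptor that lowers cyclic AMP, stood at 8.51, 8.60 and 8.66 in the mutant arrays and 8.40, 8.11 and 8.28 in the WT arrays, a difference of 0.32 ± 0.10 with no overlap (limma adjusted p = 0.0916). Of these receptors Avpr1a passed under 7 and Ptger3 under 6 of 17 alternatives. Both had a second probe, assigned to the same transcript, that was not tested. That of Ptger3 was detected on no array. That of Avpr1a was detected on 1 mutant and 1 WT array, with means of 4.89 in the mutant and 4.92 in the WT arrays.

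For both remaining constrictor receptors the values of the brightest probe overlapped between genotypes. Tbxa2r, the thromboxane receptor, differed by 0.13 ± 0.11 with its brighter probe and by 0.24 ± 0.09 with the other, neither past the threshold. The mutant values of that other probe all lay above its WT values, and it passed under 2 of 16 alternatives. Htr2b, a serotonin receptor, was dim, at 5.43, 5.80 and 5.12 in the mutant arrays and 5.11, 4.98 and 5.45 in the WT arrays, and its difference of 0.27 ± 0.19 had an interval of -0.19 to 0.73. The serotonin receptor Htr2a, the adrenergic receptor Adra1b and Agtr1b, the second type 1 angiotensin receptor of rodents, had probes that were detected on at most 1 array and were not tested. Adra1a, Adra1d and Ednra had no probe named in the annotation and were not analysed here.

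**Figure D1:**
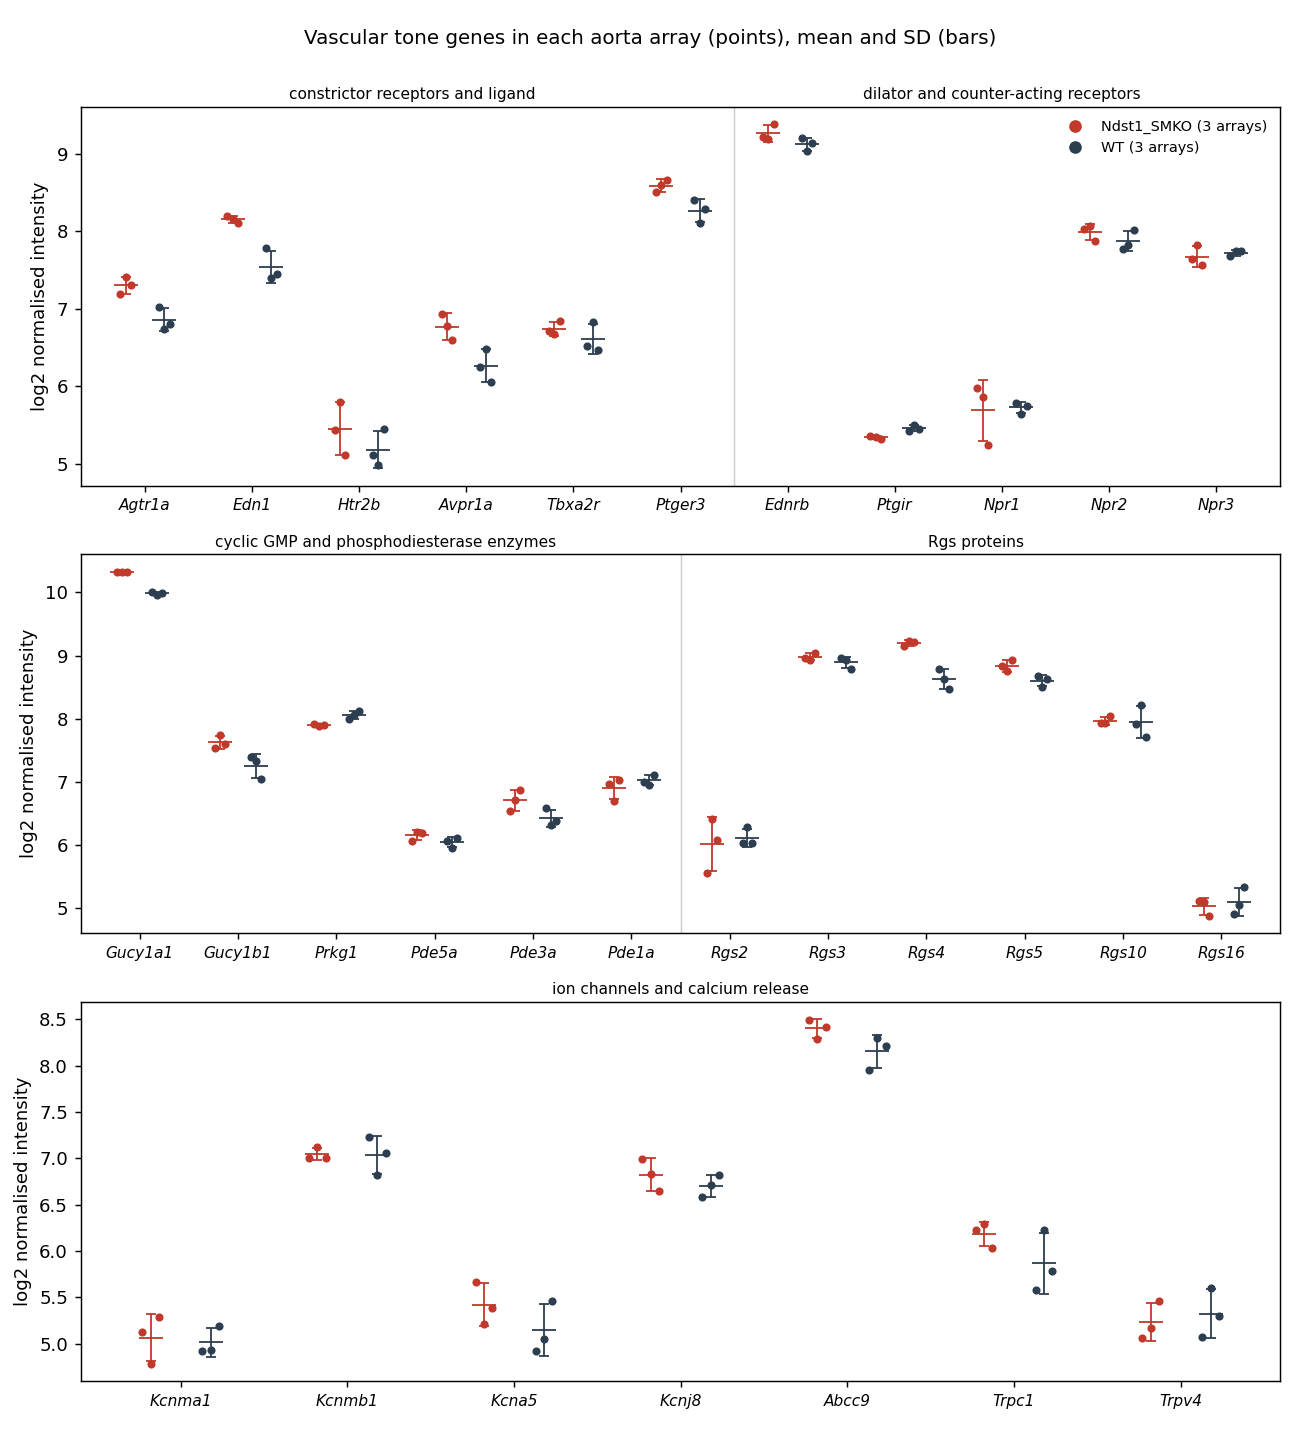
Log2 normalised intensity (vertical axes) of 30 of the 31 tested vascular tone genes, by role. Points are arrays, mutant in red on the left and WT in dark blue on the right of each gene, with the mean as a horizontal line and the SD as a bar. The 3 mutant points of Edn1, Rgs4 and Gucy1a1 all lie above the WT points, while most other genes overlap.

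No dilator or counter-acting receptor passed, and the 5 tested had a median of -0.037 with differences of -0.12 to 0.14. Ednrb, the endothelin receptor that on endothelium triggers nitric oxide release, had values of 9.21, 9.19 and 9.38 in the mutant arrays and 9.20, 9.03 and 9.13 in the WT arrays. Its second probe differed by 0.21 ± 0.13, against 0.14 ± 0.09 for the brighter one, and the interval of the brighter one was -0.069 to 0.35. Thus the receptor for the peptide whose transcript rose was not shown to change, and its partner Ednra was not analysed here. Ptgir, the prostacyclin receptor, was dim and tightly measured: 5.35, 5.34 and 5.32 in the mutant arrays lay just under 5.42, 5.49 and 5.45 in the WT arrays. This difference of -0.12 ± 0.07 did not pass (limma adjusted p = 0.334).

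No natriuretic peptide receptor passed. Npr1, the guanylate cyclase that answers atrial natriuretic peptide, was at 5.97, 5.86 and 5.24 in the mutant arrays and 5.78, 5.65 and 5.75 in the WT arrays. Mutant replicate 3 was the lowest of the 6, and the interval of the difference reached from -0.48 to 0.41. Npr2, the receptor of C-type natriuretic peptide, differed by 0.12 ± 0.10 (interval -0.11 to 0.35). Npr3, which clears these peptides, had 4 tested probes, all below 0, from -0.21 to -0.05, with none past the threshold. One ligand of this group, Nppa, was far higher in the mutant arrays (2.85 ± 0.09), as were other heart muscle markers. Agtr2, the type 2 angiotensin receptor, was detected on no array, and Adrb1 had no named probe.

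The cyclic GMP enzymes held the third gene that rose. Gucy1a1, the alpha subunit of the soluble guanylate cyclase that nitric oxide activates, had values of 10.33, 10.32 and 10.33 in the mutant arrays and 10.01, 9.97 and 9.98 in the WT arrays. Replicates lay very close, with an SD of 0.0045 in the mutant arrays and 0.023 in the WT arrays (n = 3 each), and the genotypes were apart. The difference was 0.34 ± 0.07, or 1.27-fold (limma adjusted p = 0.0314). It passed under 9 of 17 alternatives but lost the threshold whichever single array was left out (over all alternatives adjusted p = 0.000132 to 0.098).

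All 4 probes of Gucy1a1 were tested, and all 4 had a higher mean in the mutant arrays. The second brightest read 7.68, 7.74 and 7.64 in the mutant arrays and 7.14, 7.04 and 7.33 in the WT arrays, a difference of 0.52 ± 0.09 (limma adjusted p = 0.0256). The third and the fourth stood at 0.36 ± 0.13 and 0.27 ± 0.10 and did not pass, and the values of the fourth overlapped between genotypes. Gucy1b1, the beta subunit that completes the enzyme, had 7.53, 7.74 and 7.60 in the mutant arrays and 7.40, 7.32 and 7.04 in the WT arrays. Its 3 mutant values lay above the WT values and the difference was much like that of the alpha subunit, at 0.37 ± 0.12, but it did not pass (limma adjusted p = 0.101, under 0.05 in 5 of 17 alternatives). In RefSeq's gene table the 2 subunit genes are neighbours on chromosome 3.

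Downstream of cyclic GMP nothing passed. Prkg1, the cyclic GMP-dependent kinase that relaxes smooth muscle, read 7.91, 7.88 and 7.90 in the mutant arrays and 7.99, 8.05 and 8.13 in the WT arrays, so that its brighter probe was lower in every mutant array. That difference of -0.16 ± 0.07 did not pass (limma adjusted p = 0.212), and its second tested probe leaned the other way at 0.16 ± 0.14. Pde5a, the phosphodiesterase that breaks down cyclic GMP and is the target of sildenafil, differed by 0.11 ± 0.08 (interval -0.084 to 0.30). Pde3a, which cyclic GMP inhibits, read 6.53, 6.71 and 6.87 in the mutant arrays and 6.58, 6.32 and 6.38 in the WT arrays, with overlap, and differed by 0.28 ± 0.12, while its dimmer probe stood at -0.10 ± 0.19. Pde1a, a calcium-activated phosphodiesterase, had 3 tested probes from -0.29 to -0.11, none past the threshold.

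**Figure D2:**
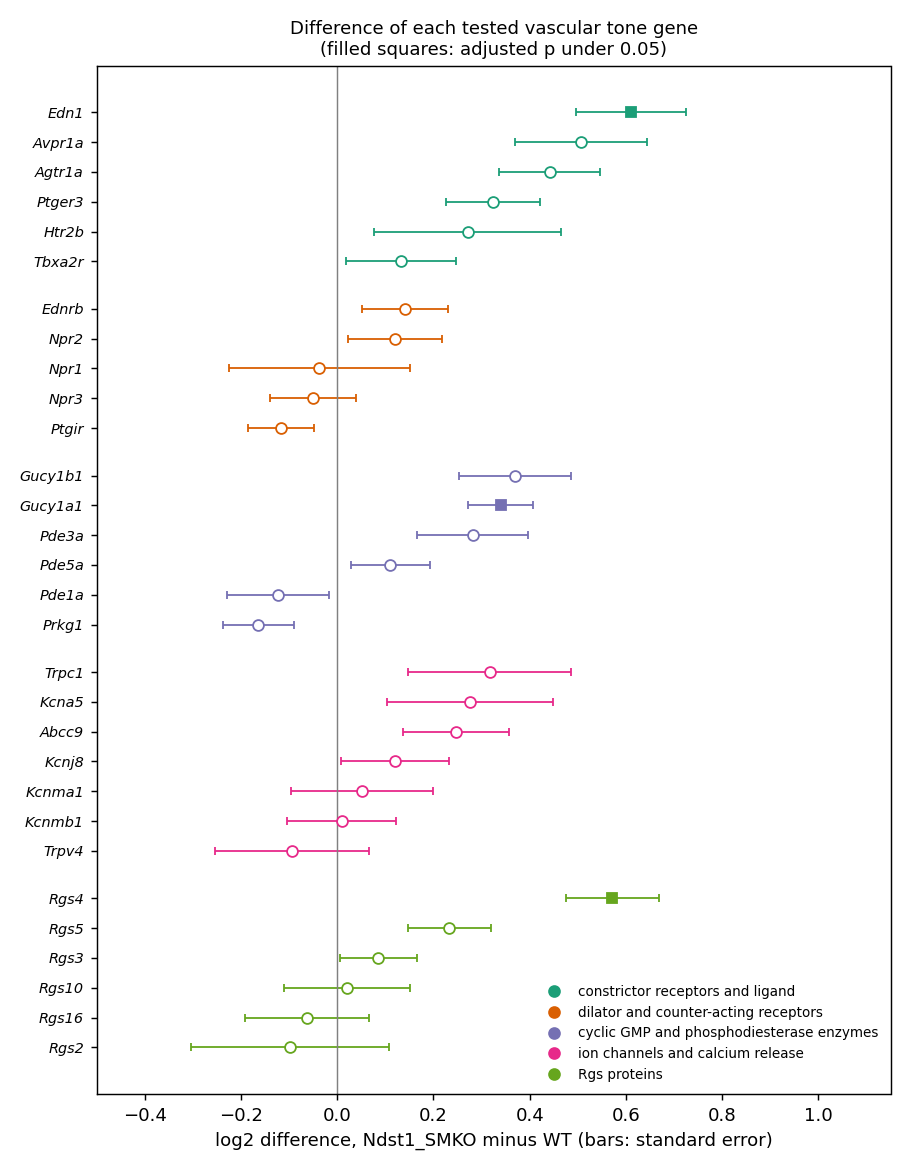
Log2 difference, mutant minus WT (horizontal axis), of 30 of the 31 tested genes by role, with the standard error as a bar. Filled squares mark Edn1, Gucy1a1 and Rgs4, the 3 genes past the threshold, and open circles the others. The 6 constrictor genes all lie right of 0.

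No ion channel rose or fell with its brightest probe (7 tested, median 0.12, range -0.094 to 0.32). The potassium channel subunits of the ATP-sensitive channel had the one probe conflict past the threshold. Abcc9 encodes its regulatory subunit, the sulfonylurea receptor SUR2, which is made in splice forms. The brightest Abcc9 probe read 8.49, 8.29 and 8.42 in the mutant arrays and 7.96, 8.30 and 8.21 in the WT arrays, which overlapped, a difference of 0.25 ± 0.11 that did not pass (limma adjusted p = 0.215). A second probe, which the annotation assigns to another RefSeq transcript of the gene, read 6.00, 6.19 and 6.03 in the mutant arrays and 6.54, 6.43 and 6.67 in the WT arrays. Every mutant value was lower there, and the probe fell by 0.48 (limma adjusted p = 0.0333). The annotation assigns 2 further probes to that same transcript, and both were detected on 0 of 6 arrays and not tested.

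Within an array the first Abcc9 probe minus the second was 2.49, 2.10 and 2.39 in the mutant arrays and 1.42, 1.86 and 1.54 in the WT arrays. These do not overlap and averaged 2.33 ± 0.20 in the mutant arrays and 1.61 ± 0.23 in the WT arrays (SD, n = 3 each). The exact two-sided permutation test gave p = 0.1, the smallest that 3 arrays against 3 allow. The pair of probes was picked because of these values, so the permutation test is no support for a difference between the genotypes. The fall of the second probe passed under 6 of 16 alternatives (adjusted p = 0.0179 to 0.102). SUR2 forms are also made in heart muscle, whose markers differed between the same arrays, and their part in the probe conflict was not tested. Kcnj8, the pore subunit of the same channel in smooth muscle and the neighbour of Abcc9 on chromosome 6, differed by 0.12 ± 0.11 (interval -0.15 to 0.39).

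No other channel passed. Kcnmb1, the smooth muscle subunit that tunes the large calcium-activated potassium channel, read 7.01, 7.12 and 7.01 in the mutant arrays and 7.23, 6.82 and 7.06 in the WT arrays, a difference of 0.0094 ± 0.11 with an interval of -0.26 to 0.28. The pore gene Kcnma1 was detected on 2 mutant arrays and 1 WT array with its brightest probe, and its 2 tested probes stood at 0.052 ± 0.15 and -0.12 ± 0.11. Kcna5, a voltage-gated potassium channel, was detected on 3 mutant and 2 WT arrays and differed by 0.28 ± 0.17 (interval -0.13 to 0.68). Trpc1, a cation channel, read 6.22, 6.29 and 6.03 in the mutant arrays and 5.58, 6.23 and 5.79 in the WT arrays. WT replicate 2 lay among the mutant values, and the difference of 0.32 ± 0.17 had an interval of -0.083 to 0.72. Trpv4, a cation channel of endothelium and muscle, had probes at -0.094 ± 0.16 and 0.17 ± 0.19.

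Cacna1c, the pore of the L-type calcium channel and the main calcium entry of arterial muscle, had 7 probes, of which none was detected on more than 1 array. It was therefore not tested, and neither was Trpc6, with 3 such probes. Itpr1 had no named probe. A signal that is not above background on these arrays sets no level for these genes.

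**Figure D3:**
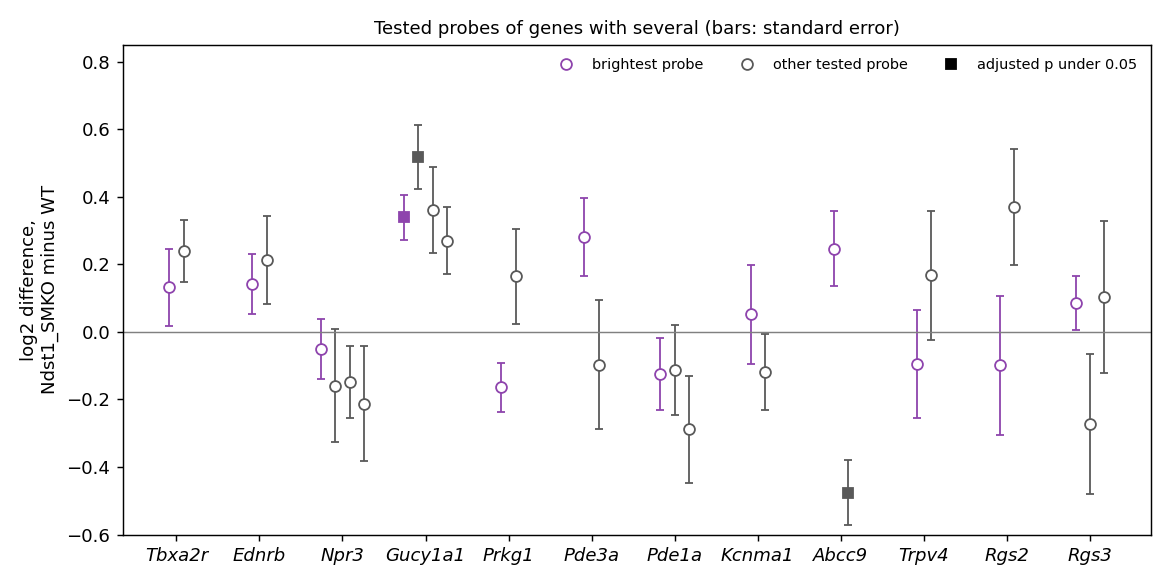
Log2 difference, mutant minus WT (vertical axis), with its standard error for every tested probe of the 12 genes that had several. Purple marks the brightest probe, grey the others, and filled squares those past the threshold. The 4 probes of Gucy1a1 all lie above 0, while the 2 probes of Abcc9 lie on opposite sides.

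Rgs4 had the smallest p among the brightest probes of the 31 genes. It encodes a brake on the G proteins that carry constrictor signals, and its single probe read 9.15, 9.23 and 9.22 in the mutant arrays and 8.78, 8.63 and 8.48 in the WT arrays. All mutant values lay above the highest WT value, with an SD of 0.047 in the mutant arrays and 0.15 in the WT arrays (n = 3 each). The difference was 0.57 ± 0.10, or 1.49-fold (limma adjusted p = 0.02, interval 0.34 to 0.80). Rgs4 passed under 11 of 17 alternatives (adjusted p = 7.81e-06 to 0.0729), and, like Edn1, lost the threshold when any single array other than WT replicate 1 was left out.

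Its chromosome 1 neighbour Rgs5, a brake abundant in pericytes and arterial muscle, read 8.83, 8.75 and 8.93 in the mutant arrays and 8.68, 8.51 and 8.63 in the WT arrays. These values did not overlap either, but the difference of 0.23 ± 0.09 did not pass (limma adjusted p = 0.148, under 0.05 in 5 of 17 alternatives). The pericyte markers, tested in 8 of 8 cases, had a median of 0.038, with none higher and Cspg4 lower (-0.39 ± 0.09). Their summed level was 2352 to 2481 in the mutant arrays and 2411 to 2623 in the WT arrays, ranges that overlap.

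No other brake passed. Rgs2, which is known to limit angiotensin signalling, read 5.56, 6.40 and 6.08 in the mutant arrays and 6.03, 6.28 and 6.04 in the WT arrays, where the mutant values spanned the WT range. Its 2 probes leaned apart, at -0.10 ± 0.21 and 0.37 ± 0.17, and the interval of the brighter one, -0.59 to 0.39, is the widest among the brightest probes of the 31 genes. Rgs3 was bright and steady with its best probe (0.085 ± 0.08), and its 2 dimmer tested probes stood at -0.27 ± 0.21 and 0.10 ± 0.22. Rgs10 differed by 0.020 ± 0.13 and Rgs16, detected on 4 of 6 arrays, by -0.063 ± 0.13. Across the family the median was 0.053, with 1 of 6 called (16.7%, against 7.35% of all tested genes), a share that rests on Rgs4 alone.

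Of these genes 3 pairs lie side by side in RefSeq's gene table, and both members of each pair stood above 0: Rgs5 and Rgs4, Gucy1b1 and Gucy1a1, Kcnj8 and Abcc9. With 23 of 31 tested genes above 0 this carries little, and no test was made of it. Of the 12 genes with several tested probes, 7 had probes on both sides of 0, so for those 7 the direction rested on which probe was read. By probe, 5 of 49 tested were called (10.2%, against 7.44% of all tested probes), 4 higher (4.32% of all probes) and 1 lower (3.12% of all probes).

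**Figure D4:**
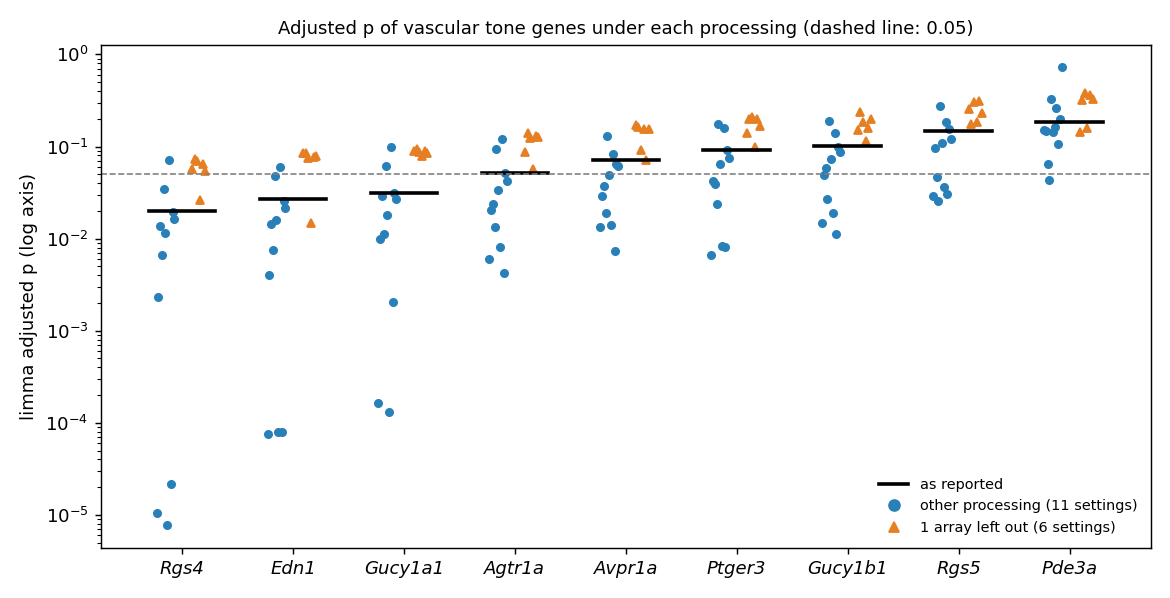
Limma adjusted p (vertical log axis) of 9 genes that passed under at least 1 processing, with the reported value as a black line, 11 other processings as blue circles and the 6 fits that left out an array as orange triangles. The dashed line is 0.05. For Rgs4 and Edn1 5 of the 6 triangles lie above the line, and for Gucy1a1 all 6.

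Beyond the set, 170 other genes of vascular tone were listed by role, and 9 of the 83 tested passed, 6 higher and 3 lower (median 0.0054). Their share, 10.8%, is near that of all tested genes. Of 13 tested receptors and ligands 4 rose (30.8%, against 4.61% of all tested genes). F2r, the thrombin receptor PAR1, read 10.89, 10.76 and 10.72 in the mutant arrays and 9.86, 9.90 and 9.81 in the WT arrays, a difference of 0.94 ± 0.08 that passed under every alternative (limma adjusted p = 0.00129). Nppa rose by 2.85 ± 0.09 and S1pr2, a sphingosine 1-phosphate receptor, by 0.43 ± 0.07, but another S1pr2 probe stood at -0.43. Adra2c, an adrenergic receptor, was detected on no WT array and was at least 1.07-fold higher, its measured means being 5.07 in the mutant arrays and 4.52 in the WT arrays (limma adjusted p = 0.0293). Adra2c entered the tests through the mutant arrays alone, so that its passing and its place among the 4 are no support for a rise of the list.

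Among G proteins and their effectors Gnai1, an inhibitory G protein, was the one called of 27 tested (0.57 ± 0.08, limma adjusted p = 0.0125). Of 10 other cyclic nucleotide enzymes Pde4d, which breaks down cyclic AMP, fell (-0.66 ± 0.07, limma adjusted p = 0.00424): it read 8.26, 8.28 and 8.22 in the mutant arrays and 8.85, 8.92 and 8.95 in the WT arrays. Of 18 other channels Kcne4, a regulatory subunit of potassium channels, rose (0.60 ± 0.08), and the potassium channel Kcnc4 (-0.73 ± 0.13, its other probe at -0.05) and the calcium channel Cacna1d (-0.47 ± 0.08) fell. The shares called were 3.7% for the G protein list, 10% for these enzymes and 16.7% for these channels, against 7.35% of all tested genes. None of the 6 other tested Rgs proteins passed (median -0.022), and none of 9 genes of nitric oxide and prostanoid synthesis (median 0.10). Of these, Pde4d and Kcne4 passed under all 17 alternatives and Gnai1 under 16, while S1pr2, Kcnc4 and Cacna1d passed under 10 each and Adra2c under 8 of 16.

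**Figure D5:**
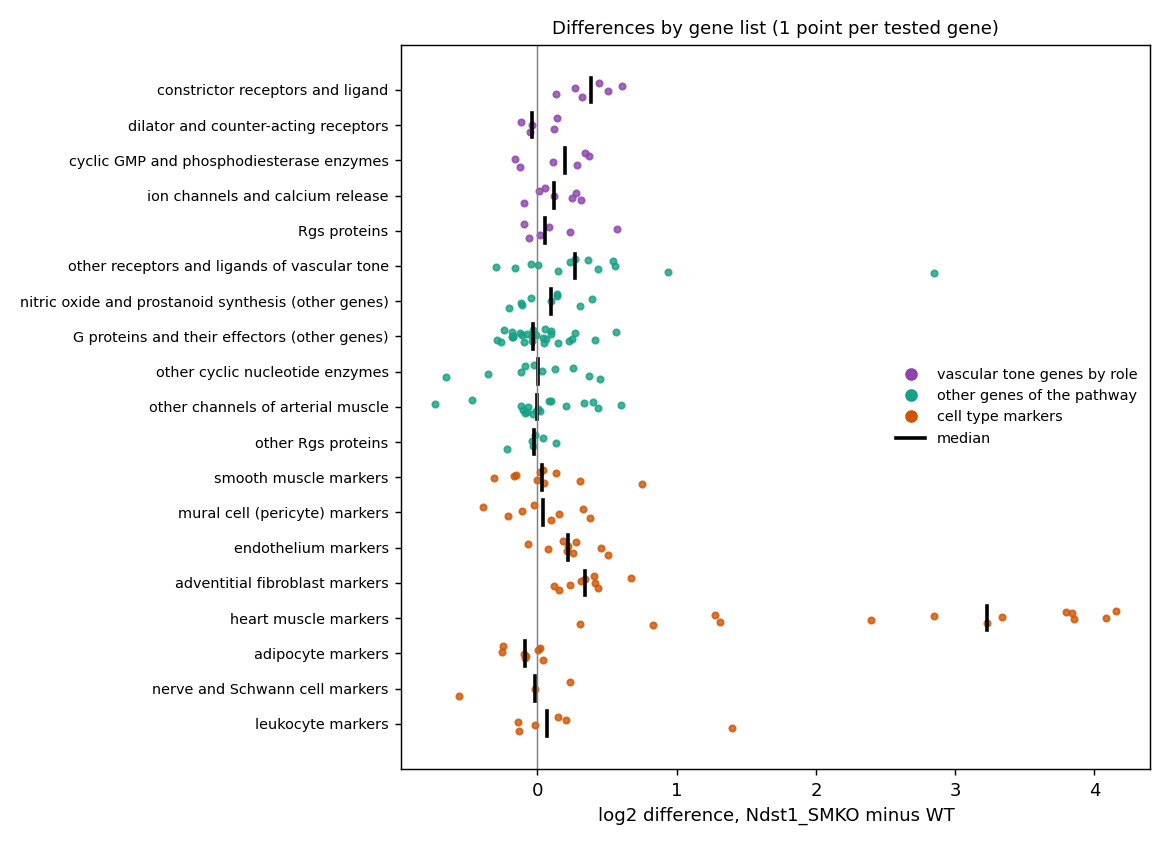
Log2 differences, mutant minus WT (horizontal axis), with 1 point per tested gene and the median as a black bar, for the vascular tone genes by role (purple), other genes of the pathway (green) and cell type markers (orange). The heart muscle markers reach 4.16, far right of every vascular tone gene, of which Edn1 at 0.61 is the highest.

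The share of calls that were higher moved with the processing. As reported, 58.1% of 1336 calls were higher in the mutant arrays, against 82.9% with median scaling, 88.9% without normalization between arrays, 50.1% without background correction, 50.5% with an intensity trend and robust variances, and 41.5% in the authors' processed values. Without normalization the median of the tested genes itself stood at 0.14, and the 31 genes had a median of 0.30. Every call made for these genes by their brightest probe under the alternatives was higher in the mutant arrays.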

How the data were processed

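RNA from 6 thoracic aorta samples was hybridized to Illumina mouse bead arrays after copying into biotinylated cRNA, per the labels' protocols. The deposited non-normalized table gives, per the file headers, the mean bead intensity of 45281 probes on each array, unlogged, with a detection p-value. The submitters' processing notes name GenomeStudio. The authors' processed table holds linear intensities with a scaling that no source used here gives (array medians 134.2 to 134.4 in the mutant and 135.8 to 135.9 in WT), and served as an alternative.

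From the unscaled intensities, limma 3.58.1 (R 4.3.3) was used for normexp background correction from the detection p-values, an offset of 16, quantile normalization and log2, as in neqc. The offset understates fold changes of dim probes. A probe entered the tests if 3 or more of the 6 arrays, of any genotype, gave a detection p-value under 0.05 (17954 probes). Between 17549 and 18619 probes were detected per array, median raw intensities were 130.0 to 141.5, and the median SD within a genotype was 0.13 in log2. The number of arrays limits the precision. Genotypes were compared with lmFit and eBayes, two-sided, adjusted over all kept probes. In the platform annotation 34885 probes had 1 gene, 18 several and 10378 none listed; a gene's values are those of its brightest tested probe, by mean log2 over all 6 arrays. Tables were assembled with Python 3.11.15. The fit was tested on simulated data. Alternatives changed 1 step at a time: background correction, scaling, detection filter, variance model, probe choice, a replicate block and each array left out. The authors' processed values replaced background correction, offset and scaling together. A fit without 1 array pools the spread over the genotypes.

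Genes and lists were chosen with earlier results of these data known. Of the 31 tested genes, 1 enters the counts and medians but its own result is not reported here. The other members with a probe are named; of other lists, up to 4 called pathway genes with the smallest p, and of marker lists the brightest 3 and up to 2 called, of which some are given as counts.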

Additional observations from a re-analysis of the deposited data

How the results depend on the processing

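Of the 31 vascular tone genes 3 were called as reported, 9 without background correction, 7 with an offset of 50, 7 with median scaling, 10 without normalization between arrays, 5 with detection required on all 6 arrays, 9 with an intensity trend and robust variances, 9 in the authors' processed values, and 0 to 2 when 1 array was left out. Their median difference was 0.068, 0.11, 0.25 and 0.30 under the first 4 of these changes. It was 0.11 without a detection filter, 0.071 in the authors' processed values and 0.12 to 0.19 without 1 array. Over all tested genes the median was 0.0023, 0.0033, 0.095 and 0.14 under the same 4 changes, and -0.0073 in the authors' processed values. Among the other pathway genes 9 were called as reported, against 16 without background correction, 20 without normalization, 15 with the trend, 19 in the authors' values and 5 to 7 without 1 array. Over all 17954 tested probes 1336 calls became 3145 without background correction, 2190 with an offset of 50, 1745 with median scaling and 2711 without normalization. They became 3086 with the trend, 3493 in the authors' values and 404 to 532 without 1 array. Without a filter 722 of 45281 probes were called. Detection on all 6 arrays left 28 of the vascular tone genes tested, and 1752 of 14905 probes were called. With the replicate number as a block, limma called 0 vascular tone genes (8 at an unadjusted p under 0.05, or 25.8%, against 23.9% of all tested probes), 5 other pathway genes and 364 probes. Samples share only a number here: deviations of same-numbered arrays correlated at -0.015 for number 1, 0.011 for 2 and 0.020 for 3, and not every array correlated best with its own number. The counts of 0 without 1 array (7 to 11 genes at an unadjusted p under 0.05, or 22.6% to 35.5%, against 21.8% to 22.8% of all tested probes, limma) came from fits without mutant replicate 1, 2 or 3 or WT replicate 2 or 3. Under every alternative 18 genes stayed above 0. In the authors' processed values Acta2 was lower at -0.16 (limma adjusted p = 0.0448) and Cidea, a brown fat marker, at -0.21 (limma adjusted p = 0.0104), the reverse of their reported signs. The cause of these shifts was not tested. Dim probes, such as those of Kcnma1, Kcna5 and Rgs16, were measured near background.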

Other observations

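Brown fat transcripts were detected in both genotypes. Ucp1, the uncoupling protein of brown adipocytes, read 14.21, 14.25 and 14.19 in the mutant arrays and 14.37, 14.44 and 14.58 in the WT arrays, and Cidea, another brown fat gene, 14.52, 14.43 and 14.47 in the mutant arrays and 14.42, 14.54 and 14.40 in the WT arrays. Of 8 tested adipocyte markers none passed in limma's test as reported (median -0.085). Ucp1, lower in every mutant array than in any WT array, passed under 3 of 17 alternatives, and the markers Cidea and Cox8b under 1 each. The summed level of the 8 markers was 78606 to 81320 in the mutant arrays and 83475 to 86203 in the WT arrays, ranges that do not overlap. The vascular tone genes were therefore read in tissue that also held adipocyte RNA, and no value here assigns them to a cell type.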
